A study of Canis lupus familiaris with 23 samples.

Results

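Expression of 6 genes that modify, fold, trim and cross-link fibrillar collagen was measured in canine osteosarcoma: P4HA2, P3H4, SERPINH1, BMP1, PCOLCE and LOXL2. The members were all probe sets that the platform annotation assigns to 1 of these symbols alone. There were 7 such probe sets, 2 of them for P4HA2, among 23836 probe sets and 6540 named genes on the array. The genes were picked by name, with earlier results of these data known, and their relation to type I collagen was examined over the tumors.

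Type I collagen, the main protein of bone matrix, is made from the COL1A1 and COL1A2 chains. Its prolines and lysines are hydroxylated in the endoplasmic reticulum (ER), where chaperones hold the triple helix until export. Outside the cell the propeptides are cut off, fibrils form, and lysyl oxidases start the cross-links that give a fibril its strength. Osteoblasts and osteosarcoma cells that lay down osteoid are known for a high output of this collagen, and fibroblasts make it too.

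The series held 23 arrays of dog RNA. There were 15 primary osteosarcomas, taken at surgery from dogs that had not yet received chemotherapy, and 2 canine osteosarcoma cell lines, each 1 line on 1 array. Normal tissue came from dogs of a research colony, with 2 samples each of kidney, liver and lymph node. The labels used here gave no age, breed or skeletal site, and no normal bone was among the samples. Every value is a log2 expression value on the scale of robust multi-array averaging (RMA), in which a difference of 1 stands for a 2-fold difference. The median of an array lay between 4.73 and 4.95.

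Averages of marker lists matched the labels of the organs. Hepatocyte genes averaged 9.43 to 9.52 in liver and at most 5.50 in any other sample. Kidney epithelium genes averaged 8.45 to 8.99 in kidney and at most 6.25 elsewhere, and lymphocyte genes 9.41 to 10.43 in lymph node and at most 7.27 elsewhere. The lymphocyte average rests on CD3E and CD3D alone. Not every single gene stood out. Group means of APOB were 3.84 in liver and 3.69 in tumors, those of TTR 9.74 and 9.32, and those of UMOD 6.42 in kidney and 6.17 in liver. The 5 osteoblast markers averaged 5.67 to 7.22 in tumors and overlapped kidney, which like the tumors had high SPP1. In the cell lines these markers averaged only 4.27 and 4.70, with SPP1 at 4.32, although COL1A1 was at 13.18 and 12.39 there. Control probe sets divided the arrays by the loss of signal from the 3′ to the 5′ end of actin and Gapdh. This loss was 3.15 to 6.45 on 7 tumor arrays and on replicate 1 of each organ, and at most 0.85 on the other arrays. The comparison of tumors with all organs together and the correlations with COL1A1 are also given within each class. Both cell lines had full 5′ signal, and their comparisons are not given by class. Tumor 5 stood apart from the other 14, with the lowest COL1A1 (9.58, against 12.32 to 13.94) and the highest average of skeletal muscle genes (8.11, against 4.61 to 5.79).

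All 6 genes were expressed at a higher level in the tumors than in the normal organs. The difference ranged from 1.76 for BMP1 to 4.22 for PCOLCE, and 6 of the 7 probe sets passed the test (limma, adjusted p under 0.01), where 3.02% of all probe sets were called higher. The median difference of the 6 genes, each taken by its brightest probe set, was 3.23, against -0.02 over all probe sets. Since the genes were chosen with earlier results of these data known, these figures describe them and are not a test of the set. In whole tissue, more collagen-making cells and more RNA per such cell cannot be told apart. The study describes its normal samples as biological replicates, but neither it nor the labels say whether organ samples of the same number share a dog, and the p-values measure the spread between these samples alone.

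**Figure D1:**
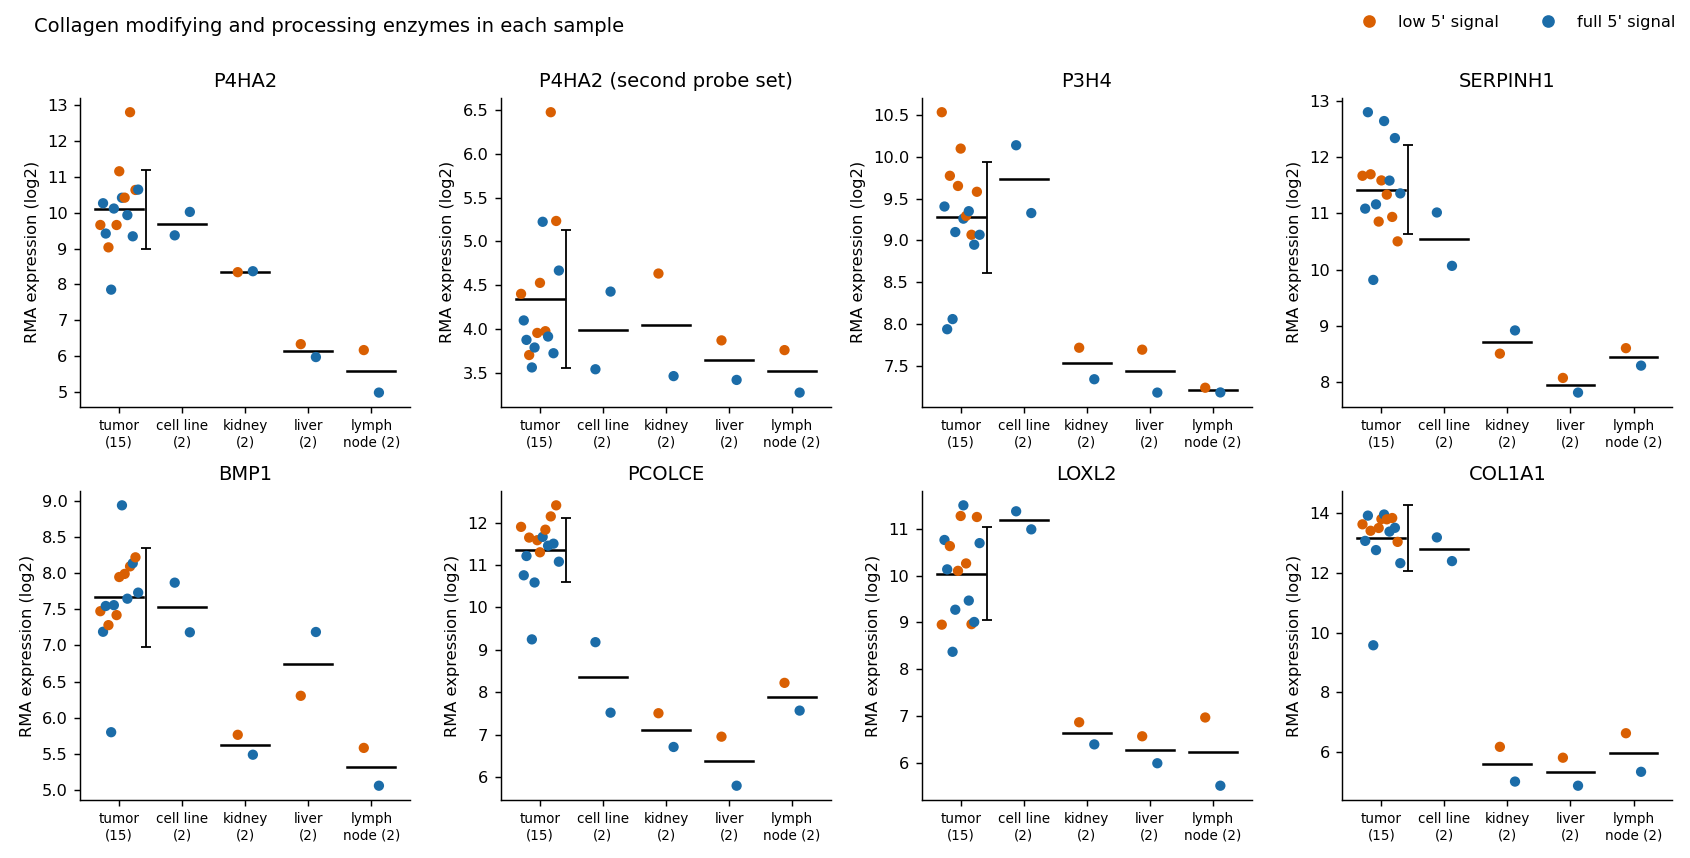
RMA expression (log2) of the 7 member probe sets and of COL1A1 in each of the 23 samples, by group, with group size in parentheses. Horizontal lines are group means, the bar beside the tumors is ± 1 SD, and color marks arrays with low or full 5′ signal. The lowest tumor for 6 of the 7 member probe sets and for COL1A1 was tumor 5, with COL1A1 at 9.58.

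P4HA2 encodes a catalytic subunit of prolyl 4-hydroxylase, the enzyme that makes the 4-hydroxyproline on which a stable triple helix depends. Its brighter probe set (1594163_at) ranged from 7.85 in tumor 5 over a median of 10.11 to 12.79 in tumor 12. The cell lines were at 9.37 and 10.02, kidney at 8.34 and 8.37, liver at 6.34 and 5.98, and lymph node at 6.17 and 4.99. Kidney was thus the highest of the organs, and 14 of 15 tumors lay above it, with tumor 5 below. The tumor mean exceeded the normal mean by 3.39 ± 0.54 (SE; 15 tumors, 6 normal samples; limma adjusted p = 0.000269). The second probe set (1594164_at) was dim, between 3.27 and 6.48 in all samples, with 4 of 15 tumors above every normal sample. Its difference of 0.61 ± 0.34 did not pass (adjusted p = 0.266). The probe sets therefore disagreed on the call. Their mean per sample differed by 2.0 ± 0.41 (adjusted p = 0.00279). Tumor 12 was the highest tumor by both probe sets, at 12.79 against 11.15 for the next tumor by the brighter one.

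P3H4, the SC65 protein, is a non-catalytic partner in ER complexes that modify collagen prolines and lysines. In the tumors its probe set (1592234_at) ran from 7.94 in tumor 3 over a median of 9.29 to 10.54 in tumor 1. It stood at 10.14 and 9.33 in the cell lines, 7.72 and 7.34 in kidney, 7.69 and 7.18 in liver, and 7.24 and 7.18 in lymph node. No tumor overlapped the organs, although tumor 3 was only 0.22 above the highest of them, a kidney sample. The tumors were higher by 1.89 ± 0.27 (adjusted p = 9.67e-05). Among all probe sets, 0.982% had every tumor above every normal sample; 4 of the 7 member probe sets did.

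SERPINH1 encodes HSP47, a chaperone specific to collagen that binds the helix in the ER. It was measured by 1 probe set (1597444_at), at 9.81 in tumor 5, 11.36 at the median tumor and 12.80 in tumor 3. Cell lines were at 11.02 and 10.07, kidney at 8.50 and 8.91, liver at 8.07 and 7.81, and lymph node at 8.60 and 8.29. The lowest tumor was 0.90 above the highest normal sample, and both cell lines were also above all organs. The difference between tumors and organs was 3.06 ± 0.33 (adjusted p = 2.47e-06).

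BMP1 is the main procollagen C-proteinase, which removes the C-terminal propeptides so that fibrils can form. The tumors ran from 5.80 in tumor 5 over a median of 7.65 to 8.94 in tumor 9 (1584875_at). The cell lines gave 7.87 and 7.18, and the organs 5.77 and 5.49 in kidney, 6.30 and 7.19 in liver and 5.58 and 5.06 in lymph node. Both liver samples were within the range of the tumors. Liver replicate 2 had 14 tumors above it, tumor 2 only just (7.189 against 7.186). The tumors were higher by 1.76 ± 0.33 (adjusted p = 0.00106), the smallest difference of the 6 genes. With the samples of each organ averaged first, which leaves 3 normal profiles, the same difference had an adjusted p of 0.0144.

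PCOLCE, a secreted glycoprotein, binds the C-propeptide and speeds its removal by BMP1. Its values (1603558_at) went from 9.25 in tumor 5 over a median of 11.50 to 12.40 in tumor 14. The cell lines were at 9.18 and 7.52, and lymph node was at 8.23 and 7.57, kidney at 7.51 and 6.72 and liver at 6.96 and 5.81. Every tumor was above every other sample, cell lines included, although tumor 5 (9.25) was close to cell line 1 (9.18). PCOLCE had the largest difference of the 6 genes between tumors and organs, 4.22 ± 0.36 (adjusted p = 1.21e-07).

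LOXL2, a lysyl oxidase-like enzyme, oxidizes lysines in the extracellular matrix and is known for cross-linking collagen IV of basement membranes. The tumors spanned 8.37 in tumor 5 to 11.51 in tumor 9 with a median of 10.14 (1585661_at). The cell lines were near the top of this range, at 11.38 and 10.99. In the organs it was 6.86 and 6.39 in kidney, 6.56 and 5.99 in liver and 6.97 and 5.51 in lymph node. The gap of 1.41 between the lowest tumor and the highest normal sample was the widest among the members. The tumors were higher by 3.67 ± 0.41 (adjusted p = 5.25e-06).

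The 6 calls between tumors and organs were made in each of the 21 fits that left out 1 sample. Within the 7 tumors and 3 organ samples with low 5′ signal 5 probe sets passed, P4HA2 being lost with a difference of 3.53 (adjusted p = 0.0349), and 0.885% of all probe sets were called higher. Within the 8 tumors and 3 organ samples with full 5′ signal only PCOLCE and LOXL2 passed, where 0.717% of all probe sets were called higher. The differences of the other 4 genes there were 3.30 for P4HA2, 1.66 for P3H4, 3.26 for SERPINH1 and 1.65 for BMP1.

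The organs were then taken apart, since the normal group mixes 3 tissues. These 3 comparisons share the same tumors. Against lymph node all 6 genes were higher in the tumors, against liver 5 and against kidney 4. Over all probe sets 1.33%, 3.42% and 2% were called higher in these comparisons.

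P4HA2 was 4.51 ± 0.71 higher in tumors than in lymph node (adjusted p = 0.000228) and 3.93 ± 0.71 higher than in liver (adjusted p = 0.000443). Against kidney its difference was 1.73 ± 0.71 and did not pass (adjusted p = 0.145). P3H4 was nearly the same in the 3 organs, with differences of 2.07 ± 0.44 to lymph node, 1.84 ± 0.44 to liver and 1.75 ± 0.44 to kidney. The last of these missed the threshold narrowly (adjusted p = 0.0108) and passed with the 5′ loss as a covariate (2.04, adjusted p = 0.000574). BMP1 differed by 2.34 ± 0.46 from lymph node and 2.04 ± 0.46 from kidney, both past the threshold, but by 0.92 ± 0.46 from liver (adjusted p = 0.222).

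The other 3 genes were higher in the tumors than in each organ. SERPINH1 differed by 2.72 ± 0.52 from kidney, 2.98 ± 0.52 from lymph node and 3.49 ± 0.52 from liver. PCOLCE showed the largest gap of all, 4.97 ± 0.55 to liver (adjusted p = 8.14e-07), with 4.24 ± 0.55 to kidney and 3.45 ± 0.55 to lymph node. LOXL2 differed by 3.42 ± 0.66, 3.77 ± 0.66 and 3.81 ± 0.66 from kidney, liver and lymph node. With 1 of the 2 samples of an organ left out, and the remaining one assumed to vary like the other groups, fewer genes passed. Over the fits that left out 1 sample, the difference from lymph node ran from 2.83 to 3.14 for SERPINH1. It ran from 3.13 to 3.78 for PCOLCE and from 3.08 to 4.54 for LOXL2. No share over all probe sets is given for these fits, so the lost calls cannot be read as particular to these genes.

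**Figure D2:**
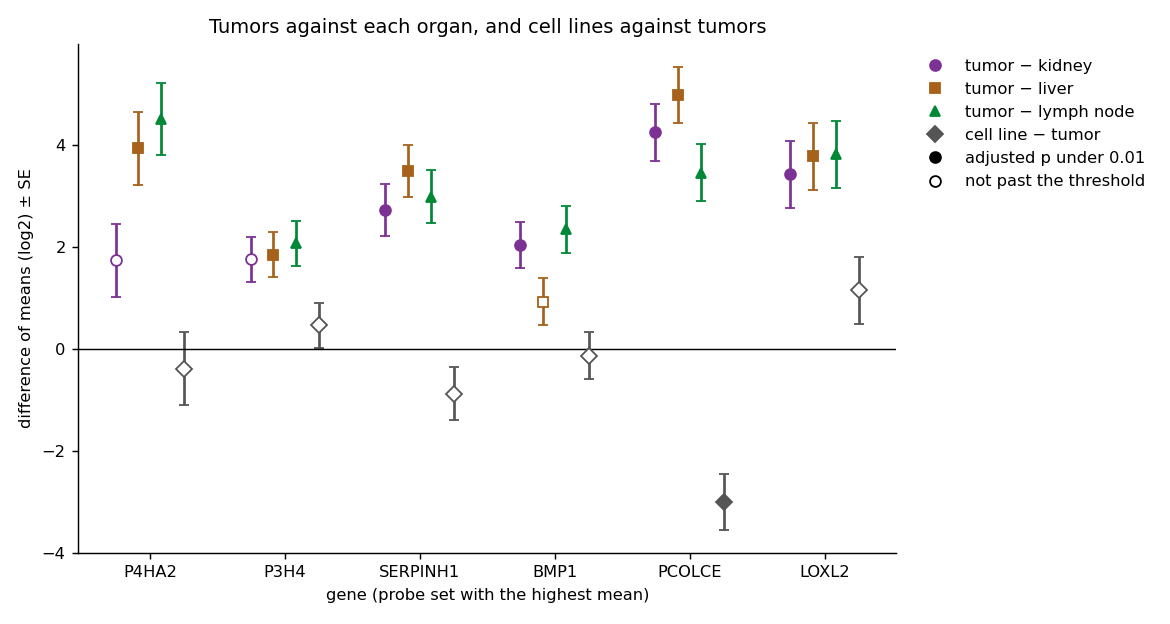
Differences of group means (log2, ± SE) for the brightest probe set of each gene: tumor minus kidney, liver and lymph node, and cell line minus tumor. Filled symbols passed an adjusted p under 0.01. For P4HA2 the kidney difference is 1.73 and the lymph node difference 4.51, and PCOLCE alone was called in the cell lines, at -3.0.

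Among the 3 organs themselves no member probe set passed when the 6 normal samples were compared by limma's moderated F-test, in which 3.09% of all probe sets were called, while 2 of the 7 had an unadjusted p under 0.05. These were P4HA2 (adjusted p = 0.0332), highest in kidney, and BMP1 (adjusted p = 0.139), highest in liver. In the order of the 5 group means, most neighbours could not be separated. Of the neighbouring groups of the 6 genes, 2 pairs passed: tumor above cell line for PCOLCE, and tumor above kidney for LOXL2 (adjusted p = 0.000984). P3H4 and LOXL2 had their highest mean in the cell lines and the other 4 genes in the tumors.

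The cell lines were then compared with the tumors. PCOLCE was the single member that differed, lower in the cell lines by 3.0 on the log2 scale (-3.0 ± 0.55; adjusted p = 0.00124), where 2.5% of all probe sets were called lower. Both cell lines lay below every tumor, as was the case for 9.52% of all probe sets. Both lines had full 5′ signal, and PCOLCE averaged 10.94 in tumors with full and 11.83 in tumors with low 5′ signal. Under the 6 alternatives, among them the 5′ loss as a covariate, the difference ran from -3.0 to -2.77 and passed each time. Without cell line 2 the difference was -2.17 and did not pass (adjusted p = 0.0847). The differences of the others, none of which passed, were 1.14 ± 0.66 for LOXL2, 0.46 ± 0.44 for P3H4, -0.14 ± 0.46 for BMP1, -0.39 ± 0.71 for P4HA2 and -0.88 ± 0.52 for SERPINH1.

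Averages of stromal markers were also lower in the cell lines. The average of the 3 fibroblast and pericyte genes measured was 7.03 and 7.07 there, and 8.56 to 10.55 in tumors. In this list ACTA2 was at 5.33 in the cell lines against 11.27 in the tumors, while DCN was at 10.64 against 12.40 (difference -1.75, adjusted p = 0.0445, not past the threshold) and MCAM at 5.17 against 5.51. The 5 macrophage genes averaged 4.87 and 5.18 in the cell lines and 7.72 to 10.04 in the tumors, and the 3 endothelial genes 4.21 and 4.42 against 6.17 to 8.87. The part of these cells in the PCOLCE difference was not tested.

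Against the organs, 4 genes were higher in the cell lines, where 6.48% of all probe sets were called higher. LOXL2 had the largest difference (4.81 ± 0.71, adjusted p = 5.36e-05), followed by P4HA2 (2.99 ± 0.77, adjusted p = 0.00758), P3H4 (2.34 ± 0.48, adjusted p = 0.00133) and SERPINH1 (2.18 ± 0.56, adjusted p = 0.00729). For these same genes both cell lines lay above all 6 normal samples, which held for 14.3% of all probe sets. BMP1 (1.63 ± 0.50, adjusted p = 0.0211) and PCOLCE (1.22 ± 0.60, adjusted p = 0.145) did not pass, and 1 of the 2 cell lines overlapped the organs for each. With the 5′ loss as a covariate SERPINH1 lost its call (difference 2.04, limma adjusted p = 0.0162). P4HA2 and SERPINH1 each lost the call in 7 of the 9 fits that left out 1 sample (adjusted p up to 0.0939 and 0.141) and with the replicate block described with the processing. P3H4 lost it in 1 of these fits, without cell line 1, and LOXL2 in none.

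Within the tumors the members varied over 2.60 (P3H4) to 4.94 (P4HA2) on the log2 scale. Tumor 5 was the lowest of 15 for P4HA2, SERPINH1, BMP1, PCOLCE and LOXL2, and second lowest for P3H4. Its mean deviation from the tumor average of each gene was -1.78, against -0.34 to 0.76 in the other 14. Tumor 9 was at the other end, with the highest BMP1 and LOXL2. In tumor 5 the muscle genes MYL1 (12.44, at most 7.91 in the other tumors), TNNT3 (9.15, at most 3.94), DES (10.97, at most 7.87) and MYH2 (5.33, at most 3.71) were the highest of all tumors. MYH1 and ACTA1 were not. The endothelial genes of tumor 5 were also the highest (8.87, against 6.17 to 8.38) and its osteoclast genes the lowest (6.40, against 6.65 to 10.50). Its fibroblast and pericyte genes (10.29, against 8.56 to 10.55) and its osteoblast genes (5.95, against 5.67 to 7.22) lay within the range of the other tumors. The part of these tissues in its low collagen genes was not tested.

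The correlation of the members with type I collagen was measured over the 15 tumors, against the brightest COL1A1 probe set. All 6 genes had a positive Pearson r, as did 65.8% of all probe sets. It ran from 0.406 for LOXL2 to 0.814 for PCOLCE, with a median of 0.607 against 0.135 over all probe sets. In limma's regression of all probe sets on COL1A1 2 of the 7 member probe sets passed an adjusted p under 0.05, where 0.231% of all probe sets were called with a positive slope. PCOLCE rose by 0.56 ± 0.11 (adjusted p = 0.0107) and BMP1 by 0.49 ± 0.10 (adjusted p = 0.0245) per unit of COL1A1. Both act in C-propeptide removal, but the slope was not shared by PCOLCE2, the other listed gene of propeptide removal that was measured. Its slope was -0.49 ± 0.20 and did not pass (adjusted p = 0.328).

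PCOLCE had r = 0.814 (permutation p = 0.00421) and Spearman's rho = 0.489 (permutation p = 0.0670). For BMP1 r was 0.779 (permutation p = 0.00745) and rho 0.429 (permutation p = 0.112). SERPINH1 had a lower r of 0.678 (permutation p = 0.00301) but the highest rho, 0.593 (permutation p = 0.0231), and a slope of 0.49 ± 0.14 that did not pass the adjustment over all probe sets (adjusted p = 0.119). The rank correlations of the first 2 genes were thus weaker than their linear ones. For the other genes r was 0.537 for P4HA2 (permutation p = 0.0841; rho = 0.204, permutation p = 0.465), 0.456 for P3H4 (permutation p = 0.125; rho = 0.0518, permutation p = 0.854) and 0.406 for LOXL2 (permutation p = 0.121; rho = 0.182, permutation p = 0.516). The dim second probe set of P4HA2 had r = 0.311 (permutation p = 0.183) and rho = 0.325 (permutation p = 0.236). All p-values here are two-sided, and those of the correlations are unadjusted, the adjustment being that of the regression.

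**Figure D3:**
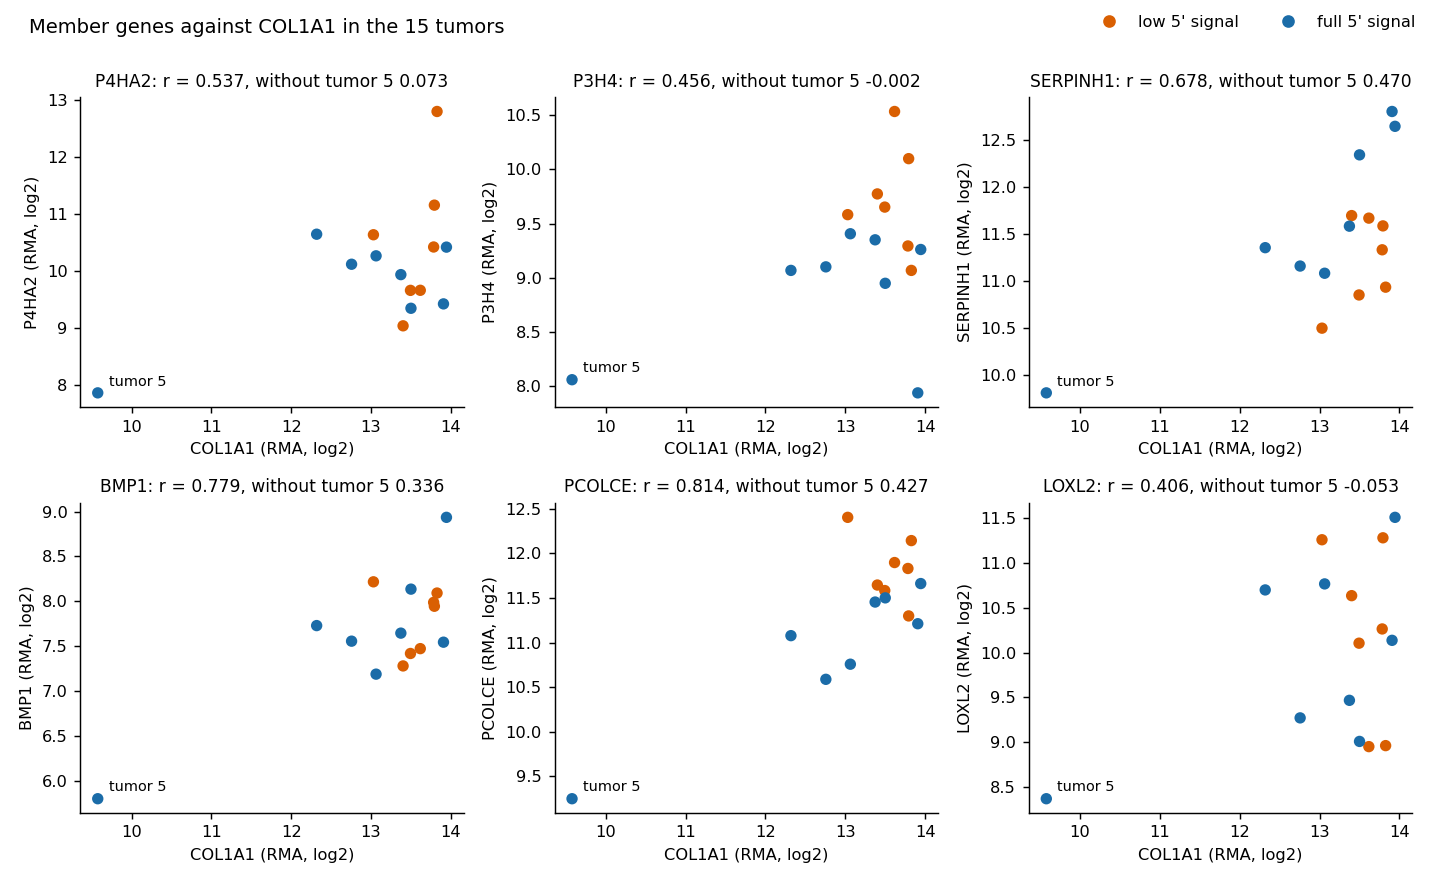
Expression of each member gene against COL1A1 (both RMA, log2) in the 15 tumors, colored by 5′ signal, with Pearson's r over all tumors and without tumor 5. Tumor 5, at a COL1A1 of 9.58, lies apart at the lower left in all 6 panels, and without it r falls to 0.427 for PCOLCE and 0.336 for BMP1.

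With this probe set of COL1A1 the relation rested largely on tumor 5. Without it r was 0.470 for SERPINH1 (permutation p = 0.0888), 0.427 for PCOLCE (permutation p = 0.128), 0.336 for BMP1 (permutation p = 0.237), 0.0731 for P4HA2, -0.0024 for P3H4 and -0.0527 for LOXL2. The regression then called none of the 7 probe sets, 0 of them even at an unadjusted p under 0.05, and the median r was 0.205 against 0.117 over all probe sets. When the 2 tumors farthest from the median of COL1A1 (tumors 5 and 15) were left out, only SERPINH1 had a p under 0.05 (r = 0.561, permutation p = 0.0465), while PCOLCE was at 0.365 and BMP1 at 0.413. The remaining 3 genes were then at 0.206 (P4HA2), 0.0813 (LOXL2) and -0.130 (P3H4).

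Type I collagen itself showed the same dependence. COL1A1 and COL1A2, whose products are joined in 1 helix, correlated at r = 0.884 over 15 tumors (permutation p = 0.0122) but at 0.267 without tumor 5 (permutation p = 0.354). Against the brightest of the 5 COL1A2 probe sets the members had r of 0.446 (SERPINH1) to 0.749 (PCOLCE) over all tumors. Without tumor 5 r ran from -0.261 (SERPINH1) to 0.458 (P4HA2). By rank over all tumors P4HA2 had the highest rho of the genes, 0.570 (permutation p = 0.0284). Its second probe set had 0.586 (permutation p = 0.0240). The other genes had rho of -0.0286 (SERPINH1) to 0.424 (LOXL2), each with permutation p above 0.05. For the P4HA2 probe sets rho was 0.471 and 0.491 without tumor 5 (permutation p = 0.0921 and 0.0783). It was 0.632 and 0.621 without tumors 5 and 15 (permutation p = 0.0233 and 0.0274). The brightest probe sets of both chains lay near the top of the scale, where the highest value of any tested probe set was 14.17. In the tumors COL1A1 had a median of 13.49 and a maximum of 13.94, and COL1A2 a median of 13.61 and a maximum of 13.82. The part of this upper end in the correlations was not tested.

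The correlations changed with the probe set that stood for a collagen chain. Against the second COL1A1 probe set r was 0.422 to 0.725 over the 15 tumors and -0.190 (SERPINH1) to 0.275 (P4HA2) without tumor 5. The COL1A2 probe sets of rank 2 and 3 by brightness likewise gave positive r with all 6 genes over the 15 tumors, and without tumor 5 from -0.0733 to 0.233 and from -0.673 (SERPINH1) to 0.504 (P3H4). The one of rank 4, on which tumor 6 and not tumor 5 was the lowest tumor, changed less: without tumor 5 BMP1 had r of 0.641 (0.640 with it), LOXL2 0.586 (0.641 with it) and PCOLCE 0.548 (0.579 with it), and all 6 genes stayed positive. The dimmest gave -0.0609 (PCOLCE) to 0.375 (LOXL2) over all tumors. The sign of r for SERPINH1 without tumor 5 thus differed among probe sets of the same chain.

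The correlations with COL1A1 were also taken within the classes of 5′ signal. In the 8 tumors with full 5′ signal, which include tumor 5, r was 0.932 for PCOLCE (exact permutation p = 0.00756), 0.900 for SERPINH1 (exact p = 0.000918) and 0.854 for BMP1 (exact p = 0.0167). The other genes there had r of 0.681 (P4HA2), 0.578 (LOXL2) and 0.422 (P3H4). By rank, rho in these 8 tumors was 0.857 for PCOLCE (exact permutation p = 0.0107) and 0.881 for SERPINH1 (exact permutation p = 0.00724). For BMP1 it was 0.548 (exact permutation p = 0.171). In the 7 tumors with low 5′ signal COL1A1 varied less, from 13.03 to 13.83, and r was -0.469 for PCOLCE, 0.488 for SERPINH1 and 0.0353 for BMP1, all with an exact p above 0.05. The other 3 genes had r of 0.430 (P4HA2), -0.0784 (P3H4) and -0.459 (LOXL2) in this class. Among the 7 full-signal tumors that remained without tumor 5, SERPINH1 kept r = 0.852 (exact p = 0.0188), and PCOLCE had 0.657 (exact p = 0.114). BMP1 was at 0.485 in these 7 tumors, LOXL2 at 0.114, P3H4 at -0.378 and P4HA2 at -0.554. By rank, rho in the same 7 was 0.821 for SERPINH1 (exact permutation p = 0.0341) and 0.786 for PCOLCE (exact permutation p = 0.0480). For BMP1 it was 0.321 (exact permutation p = 0.498). The difference between the classes was not tested.

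**Figure D4:**
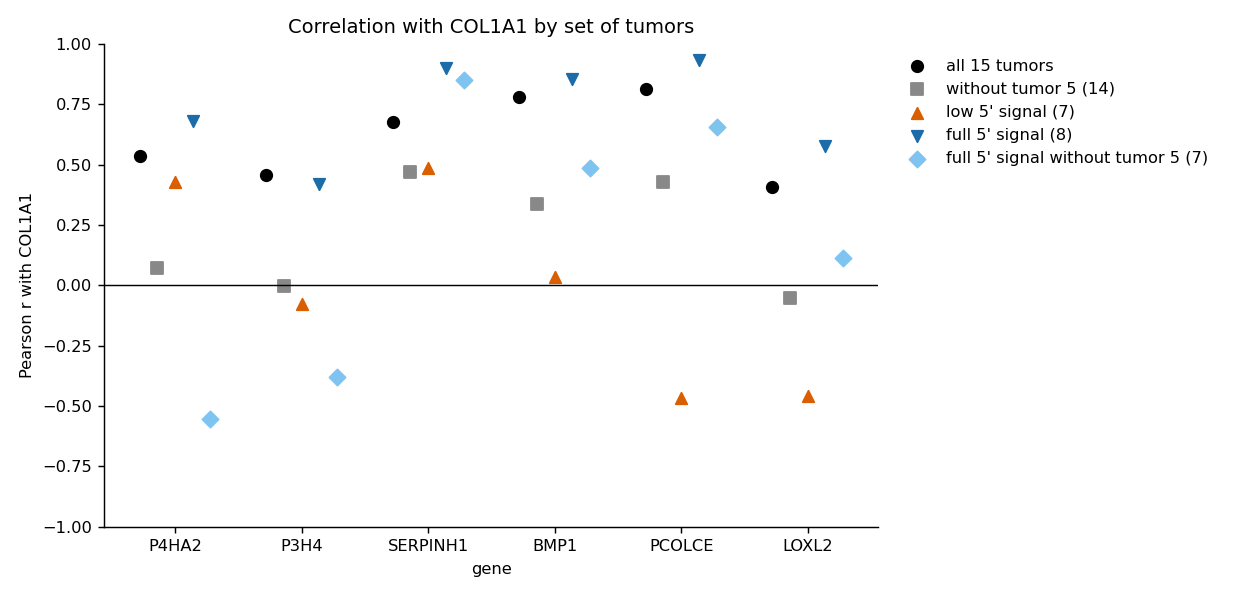
Pearson's r of each member gene with COL1A1 in 5 sets of tumors, with the number of tumors in parentheses. SERPINH1 is the only gene with r above 0.4 in all 5 sets, and PCOLCE ranges from -0.469 with low 5′ signal to 0.932 with full 5′ signal.

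The levels of the members themselves also leaned on the 5′ class, without passing the test. PCOLCE was 0.89 ± 0.30 higher in tumors with low 5′ signal (adjusted p = 0.0932) and P3H4 0.82 ± 0.26 (adjusted p = 0.0733). None of the 7 probe sets passed, where 3.18% of all probe sets did, and these 2 had an unadjusted p under 0.05.

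The members were correlated with each other to a modest degree. Over the 15 tumors all 15 pairs of the 6 genes had a positive r, with a median of 0.340. The share of positive pairs among all genes was not taken. BMP1 and PCOLCE, which act on the same propeptide, formed the closest pair (r = 0.769, permutation p = 0.00372; rho = 0.546), and P3H4 and SERPINH1 the loosest (r = 0.0008). Without tumor 5 the median was 0.038, 11 of 15 pairs were positive, and the range was -0.418 (P4HA2 and SERPINH1) to 0.445 (BMP1 and PCOLCE).

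Other genes of collagen maturation were taken from a list of 55 symbols ordered by role, of which 23 were measured with a single symbol. This list too was chosen with earlier results of these data known. No lysyl hydroxylase or collagen glycosyltransferase was among them. In the tumors 8 of the 23 were higher than in the organs and none was lower, with a median difference of 1.27, where 3.02% of all probe sets were called higher. The count was 4 within low 5′ signal, 3 within full 5′ signal and 5 with 1 averaged profile per organ. In the prolyl 3-hydroxylation complex PPIB, the cyclophilin B that isomerizes prolines, was higher by 1.27 ± 0.23, while the other gene of this complex that was measured did not pass. P4HA1, the other catalytic subunit of prolyl 4-hydroxylase that was measured, differed by 1.91 ± 0.66 (adjusted p = 0.0634).

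Of the 7 genes of folding, SPARC, a secreted collagen-binding protein also called osteonectin, was higher by 4.02 ± 0.35, and the disulfide isomerase PDIA6 by 1.22 ± 0.20. The general ER chaperone HSPA5 was at 1.75 ± 1.0 and did not pass (adjusted p = 0.282). Its SD between the 2 samples of an organ was large, at 2.68 in kidney, 3.25 in liver and 3.03 in lymph node. In each organ 1 of these samples had low 5′ signal, and the part of this split was not tested. For export, SEC23A, a subunit of the COPII coat, was higher by 1.63 ± 0.35. LOXL3, a close relative of LOXL2, was higher by 1.36 ± 0.33, just past the threshold (adjusted p = 0.00973).

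Among genes that bind or degrade the finished fibril, DCN (decorin) was higher by 3.82 ± 0.39. The gelatinase MMP2 was higher by 3.72 ± 0.36 and the osteoclast protease CTSK by 3.48 ± 0.42. The collagenase MMP13 had the largest difference of the list, 4.96 ± 1.26, with an SE that left it above the threshold (adjusted p = 0.0123), and BGN (biglycan) was at 1.65 ± 0.90 (adjusted p = 0.255). Against single organs 8 genes of the list were higher than in kidney, 5 than in liver and 4 than in lymph node, where 2%, 3.42% and 1.33% of all probe sets were. Between the cell lines and the tumors 1 of the 23 passed, a share near the 3.77% of all probe sets called higher there. This was KLHL12, an adaptor of the ubiquitin ligase that enlarges COPII carriers, at a difference of 2.29 ± 0.35. In the regression on COL1A1 only SPARC passed, at 0.33 per unit of COL1A1 (adjusted p = 0.00134), and it did not pass without tumor 5.

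**Figure D5:**
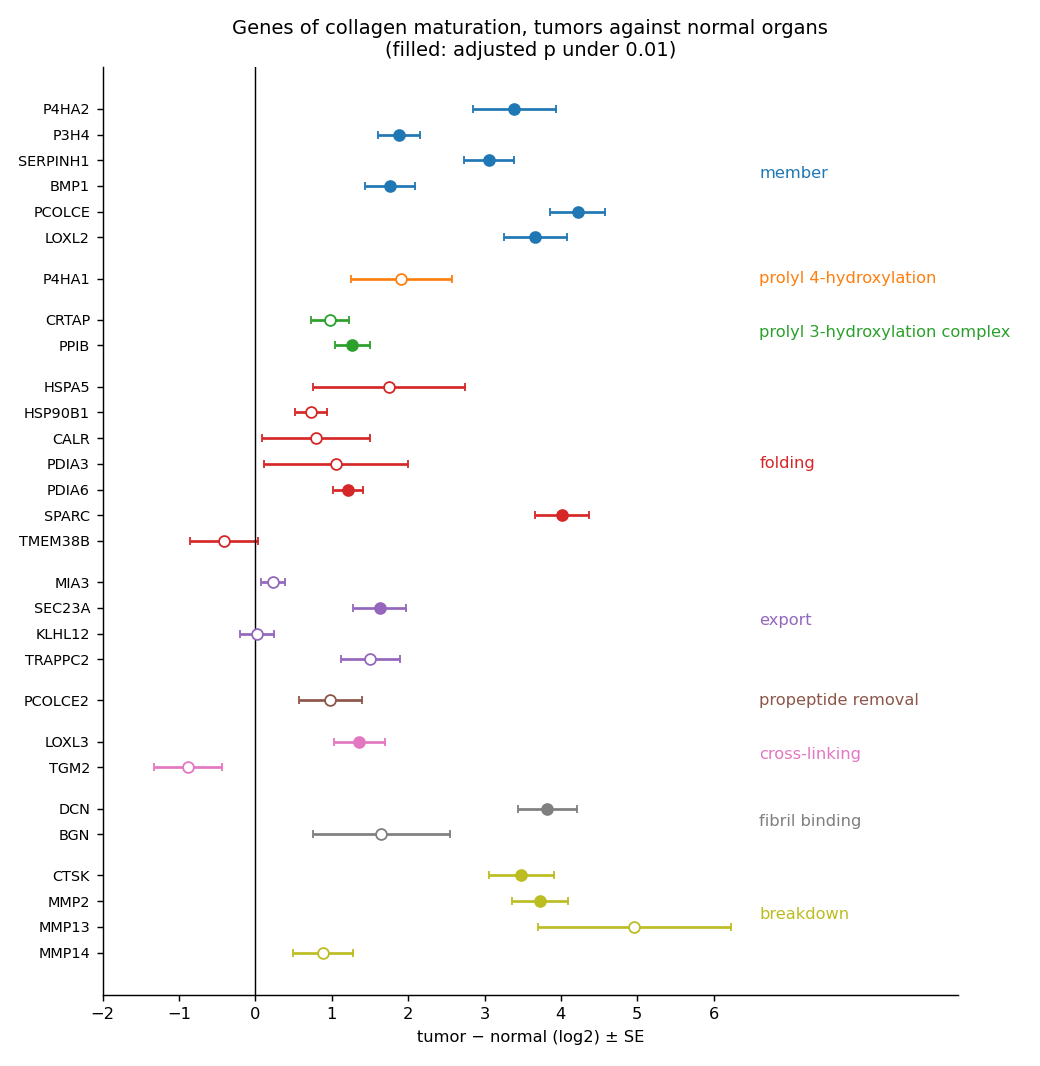
Difference between tumors and normal organs (log2, ± SE) for the 6 member genes and the 23 other measured genes of collagen maturation, grouped by role; filled symbols passed an adjusted p under 0.01. PCOLCE (4.22) and SPARC (4.02) are the largest of the filled symbols, and MMP13 (4.96) is larger but open.

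The genes whose profile was most like that of each member were sought over all 23 samples by Pearson's r, as a description across samples that share the split between tumors and organs. For SERPINH1 they were COL5A1 (r = 0.936), COL1A1 (0.929) and OLFML2B (0.915). For LOXL2 they were COL5A2 (0.928), the secreted protease HTRA1 (0.922) and COL5A1 (0.917). PCOLCE was closest to GALNT1 (0.950), COL1A2 (0.934) and CTSK (0.930). BMP1 was nearest to SEC31A (0.904), the ER retention receptor KDELR3 (0.869) and COL5A1 (0.867), P3H4 to GPX8 (0.897), CD99 (0.894) and PPIB (0.881), and P4HA2 to ITGB5 (0.866), LGALS3 (0.861) and GPX8 (0.861).

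Over the 15 tumors alone most neighbours were other genes. They are the highest r among 6540 named genes over few samples, and how high r would run by chance was not tested. SERPINH1 was closest to SEC61A1 (0.922), the channel of the ER translocon, then DDRGK1 (0.907) and EPO (0.876). PCOLCE was closest to SPHK2 (0.900), GALNT1 (0.884) and RTKN (0.876), and BMP1 to DEPDC5 (0.865), MAGEB10 (0.850) and RRBP1 (0.817). LOXL2 was closest to FHL2 (0.837), HTRA1 (0.822) and LOXL3 (0.810), P3H4 to CTNS (0.863), DDX46 (0.843) and SREK1IP1 (0.834), and P4HA2 to TRIM44 (0.784), PDLIM4 (0.740) and ERGIC2 (0.732). GALNT1 for PCOLCE and HTRA1 for LOXL2 were the 2 genes found in both searches. Without tumor 5, 4 of the 18 tumor neighbours were still among the first 3: SEC61A1, CTNS, DEPDC5 and FHL2.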

How the data were processed

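RNA of 15 tumors, 2 cell lines and 6 normal organ samples was hybridized to Affymetrix Canine Genome arrays by the one-cycle protocol at 1 facility, batched as a group. The deposited values are log2 expression values that the authors made by robust multi-array averaging (RMA, named with affy in the submitters' processing notes), which corrects background, quantile-normalizes the arrays and combines the probes of a set. No source used here names their versions. Differences in total RNA are lost by the quantile step, and those of dim probe sets are understated. Arrays give no read depth, and their number limits the precision.

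Of 23913 probe sets 77 controls were set aside, and 10549 had 1 symbol in the platform annotation. No column lacked a sample (0 of 23). Groups came from the labels. Group means were compared in R 4.3.3 by limma 3.58.1 (lmFit, eBayes, two-sided, Benjamini-Hochberg over all probe sets, threshold 0.01). Tumors against organs was a 2-group fit, and the other contrasts came from a fit of all 23 samples in 5 groups with 1 shared spread. The regression on COL1A1 used the 15 tumors and a threshold of 0.05. Correlations were tested in Python 3.11.15 with SciPy 1.17.1, by 100000 permutations or exactly below 10 tumors. Scripts were tested on simulated data.

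An array was placed in the low 5′ class where its mean 3′ minus 5′ difference of actin and Gapdh exceeded 1.5. Same-numbered organ samples deviated together from their organ means (over probe sets, r was 0.607 between kidney and liver, 0.596 between kidney and lymph node and 0.530 between liver and lymph node), so the replicate number was also fitted as a block. Replicate 1 of each organ had low 5′ signal, so the pairing and the 5′ split cannot be told apart.

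The members and gene lists were chosen with earlier results of these data known. Named genes were all member probe sets, each listed gene past the threshold with up to 4 others of large difference, the 3 most similar genes of each member, and type I collagen. The BMP1 probe set was named from the platform annotation, whose gene ID differs from that of BMP1 in RefSeq. Alternatives covered the 5′ loss, blocks, averaging per organ, filtering, centring, trend, threshold, the collagen regressor and leaving out samples.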

Additional observations from a re-analysis of the deposited data

Results flagged for a closer look

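Tumor 5 was far from the other tumors with full 5′ signal for 2 members. For P4HA2 it was at 7.85, and its gap of 1.48 to the next of these 8 tumors was 0.533 of their whole range. For PCOLCE it was at 9.25, with a gap of 1.34 and a share of 0.555. In all, 21 groups were examined in this way and chance flags about 1 in 20, so about 1 flag is what chance gives. Tumor 5 also had the lowest COL1A1 and the highest skeletal muscle genes of the 15 tumors, and their part in these values was not tested.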

How the results depend on the processing

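Between tumors and organs 5 or 6 member probe sets were called under 9 of 10 alternatives, and 2 within full 5′ signal. Of the listed genes 8 were called, but 4 within low 5′ signal, 3 within full 5′ signal and 5 with 1 averaged profile per organ. With samples left out singly the counts ran from 6 to 6 for members and 6 to 10 for listed genes. Against single organs and for the cell lines, fewer members passed in some fits that left 1 sample in a group. No share over all probe sets is given for those fits. The replicate block, which uses the pairing of the organ samples, left 6 member calls between tumors and organs, reduced those of the cell lines against organs from 4 to 2 and gave 0 among the organs. It changed no other member call. Among the organs 1 passed at an adjusted p under 0.05. In the regression on COL1A1 0 members passed with COL1A2 as regressor (5 at an unadjusted p under 0.05), within low 5′ signal (0), within full 5′ signal (4), without the 2 farthest tumors (1) or at an adjusted p under 0.01 (4). Of all probe sets 0.0755%, 0%, 0.0378%, 0.0042% and 0.0503% had a positive call in these settings, in this order. The 0 calls of the members are near these shares. Leaving out single tumors gave 0 to 2 members and 0 to 1 listed genes, 0 in both cases without tumor 5. Of the listed genes 0 passed within low or full 5′ signal or without the 2 farthest tumors. The slope of PCOLCE was -0.60 in the 7 tumors with low 5′ signal (limma adjusted p = 1.0), where the probe sets with a positive call were 0. With the 5′ loss as a covariate SERPINH1 passed as well (slope 0.65, adjusted p = 0.00513). The cause of these changes was not tested. Dim probe sets, such as the second of P4HA2, limit what can be seen near the low end of the scale.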
